A study of Mus musculus with 16 samples.

Results

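The genes described here are 10 members of the mouse Serpina family: the 5 alpha-1-antitrypsin copies Serpina1a, Serpina1b, Serpina1c, Serpina1d and Serpina1e, the antichymotrypsin-like genes Serpina3k, Serpina3m and Serpina3n, and the hormone carriers Serpina6 and Serpina7. They were taken by name, with earlier results of these data known, and were examined singly and as the sum of the 5 Serpina1 copies. They were 10 of 51912 genes in the count table, and all 10 were among the 14920 genes with enough counts to be tested. Livers came from male mice 13 weeks old, 1 library per mouse. From 10 weeks of age they had been fed for 3 weeks on an amino acid-defined control diet or on its low isoleucine counterpart. Livers were collected following either 16 h without food or a refeeding period, so that 4 groups had 4 libraries each: control fasted, low isoleucine fasted, control refed and low isoleucine refed. The strain and the length of refeeding were not given in the sources used here. Each group carried a number of its own in its sample names (1, 2, 7 or 9), so that anything this number stands for and the group cannot be told apart. The p-values measure the spread between these libraries only.

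Serpins are secreted or intracellular proteins built on 1 common fold. Inhibitory members expose a reactive loop as bait. When a serine protease cuts it at the bond after the position called P1, the serpin changes shape and traps the enzyme. The liver releases large amounts of them into plasma. Alpha-1-antitrypsin protects tissue from neutrophil elastase, and mice carry several copies of the gene where humans have 1 functional gene. Serpina6 encodes corticosteroid-binding globulin and Serpina7 thyroxine-binding globulin, which use the same fold to carry a hormone and do not inhibit a protease.

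In the GENCODE M21 annotation of GRCm38, 9 of the 10 members lay on chromosome 12, among 28 annotated Serpina genes spread over 800 kb, and Serpina7 lay on chromosome X. The 5 Serpina1 copies were all on the minus strand. The annotated span of Serpina1b (ENSMUSG00000071178) overlapped that of Serpina1d (ENSMUSG00000071177), and the span of Serpina3m (ENSMUSG00000079012) overlapped that of Serpina3k (ENSMUSG00000058207). Serpina1e (ENSMUSG00000072849) covered positions 103946931 to 103958975 and Serpina7 (ENSMUSG00000031271) covered positions 139079257 to 139085236 of its chromosome.

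The coding sequences of the 5 copies were of equal length, 1239 bases, and any pair was between 96.3% and 98.5% identical. The reactive loop, which sets the proteases a serpin can trap, is among the places where they differ. The 81 coding bases around it are shown because they distinguish Serpina1e, the copy that the diet results turn on, from the others. They come from GENCODE M21 transcripts, run 5′ to 3′ on the minus strand and lie within 1 exon in each copy, and the capitals mark the P1 codon.

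Serpina1a, chr12:103853750-103853830: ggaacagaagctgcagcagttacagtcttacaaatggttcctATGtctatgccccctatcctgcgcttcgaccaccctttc
Serpina1b, chr12:103728317-103728397: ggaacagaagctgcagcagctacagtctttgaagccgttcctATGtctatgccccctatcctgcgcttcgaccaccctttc
Serpina1c, chr12:103895087-103895167: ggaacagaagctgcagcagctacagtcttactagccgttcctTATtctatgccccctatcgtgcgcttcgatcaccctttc
Serpina1d, chr12:103763755-103763835: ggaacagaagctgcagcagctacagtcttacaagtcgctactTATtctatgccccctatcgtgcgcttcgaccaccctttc
Serpina1e, chr12:103947093-103947173: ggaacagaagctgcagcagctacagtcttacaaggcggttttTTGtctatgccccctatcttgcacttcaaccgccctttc

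Serpina1e differed from each other copy at 43 to 46 of all coding bases. Over the 81 bases shown it differed from Serpina1a at 12 bases, from Serpina1b at 11, from Serpina1c at 12 and from Serpina1d at 10. Serpina1a and Serpina1b shared a P1 codon, Serpina1c and Serpina1d shared another, and Serpina1e had its own. Because the copies are so alike, counts could be attributed to 1 copy only in part from unique sequence. Of all 50-base stretches of its annotated transcripts, those found in no other gene made up 42.4% for Serpina1a, 70.5% for Serpina1b, 25.8% for Serpina1c, 49.1% for Serpina1d and 65.4% for Serpina1e. The share was 86% for Serpina3k, 80.9% for Serpina3m, 93.1% for Serpina3n and 100% for Serpina6 and Serpina7. Values of single Serpina1 copies therefore depend on how the authors' counting divided shared reads, and the sum over copies does so less.

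RefSeq promoter windows (GRCm38.p6, 250 bases before to 50 after the annotated start) were found for 7 of the 10 members, which left out Serpina3k, Serpina3m and Serpina6. The windows of all 5 Serpina1 copies held GTTAAT, a half-site of the liver factor HNF1, read on both strands. Serpina7 also held it and Serpina3n did not, and 7.1% of 32851 promoters of the same length held it. The 106 bases around this match are shown because the 5 copies share the match and, within this stretch, nearly all of its surroundings; the rest of the windows was not compared. The match began 21, 26, 27 and 16 bases upstream of the annotated start in Serpina1a, Serpina1b, Serpina1c and Serpina1d and 78 bases upstream in Serpina1e. Capitals mark the match in Serpina1e and, in the other copies, the bases that differ from Serpina1e.

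Serpina1a, chr12:103863625-103863730, minus strand: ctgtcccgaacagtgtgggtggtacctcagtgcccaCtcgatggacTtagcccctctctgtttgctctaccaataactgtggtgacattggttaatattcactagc
Serpina1b, chr12:103738200-103738305, minus strand: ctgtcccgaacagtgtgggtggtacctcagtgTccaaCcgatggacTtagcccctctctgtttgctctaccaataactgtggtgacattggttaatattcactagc
Serpina1c, chr12:103904962-103905067, minus strand: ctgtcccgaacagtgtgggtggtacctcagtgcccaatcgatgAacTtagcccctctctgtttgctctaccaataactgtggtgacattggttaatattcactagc
Serpina1d, chr12:103773634-103773739, minus strand: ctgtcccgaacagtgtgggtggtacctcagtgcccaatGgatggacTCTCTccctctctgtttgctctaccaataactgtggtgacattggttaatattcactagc
Serpina1e, chr12:103956960-103957065, minus strand: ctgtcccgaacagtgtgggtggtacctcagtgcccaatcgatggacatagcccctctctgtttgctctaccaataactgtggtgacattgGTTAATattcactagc

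Serpina1a and Serpina1c each differed from Serpina1e at 2 of these bases, Serpina1b at 3 and Serpina1d at 6. The core TTCNNNGAA, which the growth hormone effector STAT5 binds, was in 8.3% of all promoters and had 0 matches in the windows of the 7 members. The C/EBP core TTGCNCAA, in 2.94% of promoters, also had 0 matches there. CCAAT, in 37.4% of promoters, had 2 matches in Serpina1a and Serpina1b and 3 in each of the other 3 copies.

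The libraries held between 24368656 and 34002955 counts. Feeding state separated them along the first principal component (28.6% of the variance). In the control refed group library 4 was apart from the rest: its score of 13.7 was the lowest among refed livers and its scaling factor of 1.21 the highest. Within its group it also had the highest summed markers of Kupffer cells (543 CPM), stellate cells (675 CPM), endothelial cells (387 CPM) and lymphocytes (29.9 CPM). Results that this library changes are given with and without it. In keeping with the liver label, all 14 hepatocyte markers had counts in every group. Their sum was 84538 to 118689 CPM in control fasted and 118885 to 137841 CPM in low isoleucine fasted libraries. In refed libraries it was 92673 to 95605 CPM on the control and 98639 to 121313 CPM on the low isoleucine diet. The diets did not overlap in either feeding state, but the sum is weighted to its most abundant genes. Alb alone had 39257 to 73398 CPM in control fasted and 71684 to 92121 CPM in low isoleucine fasted libraries, which overlapped. Of the 14 markers, 8 had a positive and 6 a negative log2 fold change with diet averaged over feeding states, and 0 passed. The part of the difference in the sum in the member results was not tested. Levels are TMM-normalised CPM (counts scaled to a common library total), mean ± SD with n = 4 libraries per group. In bulk tissue, fewer cells of a type and less RNA per cell cannot be told apart.

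The members were abundant. Together they took 4.19% ± 0.150 of all counts in control fasted, 3.05% ± 0.315 in low isoleucine fasted, 4.30% ± 0.497 in control refed and 3.78% ± 0.191 in refed livers of the low isoleucine diet. Per kilobase of the first annotated transcript, Serpina3k was the most abundant in control fasted livers at 7203 ± 898 CPM per kb, followed by Serpina1c at 5175 ± 399.9, Serpina1b at 4620.0 ± 298 and Serpina1e at 4068 ± 846. In this order the libraries of Serpina1c overlapped with those of Serpina1b, and those of Serpina1b with those of Serpina1e. Serpina1a, whose libraries overlapped with those of Serpina1e, had 3258 ± 139.9 and Serpina1d 2911 ± 209 CPM per kb. Serpina3n (279 ± 31), Serpina3m (234 ± 77.5), Serpina6 (74.8 ± 26.1) and Serpina7 (6.39 ± 2.67) followed, where Serpina3n and Serpina3m did not differ beyond their spread. In low isoleucine fasted livers Serpina1e had 495 ± 284 CPM per kb, the lowest level of the 5 copies.

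The first question was how the low isoleucine diet altered these genes. Serpina1e had 4645, 4058, 5996 and 6373 CPM in the 4 control fasted libraries and 926, 991, 311 and 335 CPM in the 4 low isoleucine fasted libraries. The groups did not overlap, and every low isoleucine library was far below every control library. In refed mice the control libraries had 3604, 1955, 9766 and 5588 CPM and the low isoleucine libraries 537, 1268, 1567 and 1224 CPM. The refed groups did not overlap either, although the control refed libraries were widely spread. Serpina1e fell on the low isoleucine diet in fasted mice, with a log2 fold change of -3.04 (SE 0.513, adjusted p = 0.0191), which is 0.122 of the control level. The refed difference was -2.19 (SE 0.496) and did not pass (adjusted p = 0.107). Averaged over both feeding states it was -2.61 (SE 0.356, adjusted p = 0.00219). The diet effects in the 2 feeding states did not differ past the threshold (difference 0.85, 95% interval -0.58 to 2.29, adjusted p = 0.943). In the authors' deposited tables Serpina1e had log2 fold changes of -3.05 (adjusted p = 0.00887) in fasted and -2.19 (adjusted p = 0.0559) in refed mice.

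The fasted call for Serpina1e was lost when any of 4 libraries was left out: control fasted 4 or low isoleucine fasted 2, 3 or 4. The log2 fold changes were then between -3.33 and -2.81, with adjusted p between 0.0514 and 0.0729. The averaged call held without each of the 16 libraries in turn.

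None of the other 4 copies passed between diets, in fasted, refed or all mice. Serpina1a had 5159, 5194, 5395 and 4859 CPM in control fasted and 5161, 4932, 4456 and 4839.6 CPM in low isoleucine fasted libraries. Serpina1b had 6490.4, 6840.2, 6572 and 5859 CPM against 6269, 6627, 5765 and 6385 CPM. For both copies the groups overlapped. Their log2 fold changes were -0.09 (95% interval -0.29 to 0.12) and -0.04 (-0.25 to 0.17). Serpina1c had 7645, 7237, 6937 and 6352 CPM in control fasted and 5834, 6659.8, 4384 and 5218 CPM in low isoleucine fasted libraries. Serpina1d had 4091, 4265, 4237 and 3636 CPM against 3378, 3887, 3146 and 3540.1 CPM. Each of these pairs overlapped, with the low isoleucine libraries on the low side. The log2 fold changes were -0.35 (SE 0.143, adjusted p = 0.358) for Serpina1c and -0.22 (SE 0.113, adjusted p = 0.520) for Serpina1d. In refed mice the 4 copies had log2 fold changes of 0.01, 0.15, -0.03 and 0.12, from Serpina1a to Serpina1d, with adjusted p of at least 0.675.

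**Figure D1:**
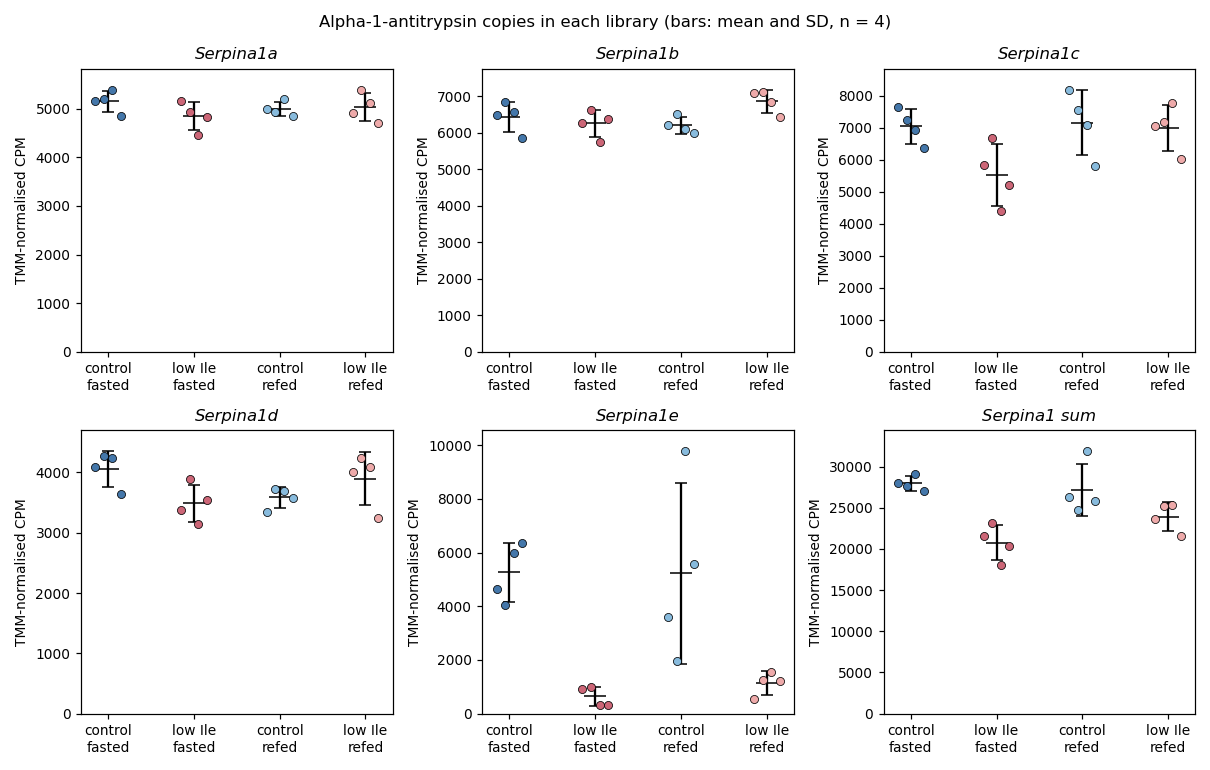
TMM-normalised CPM (vertical axis, starting at 0) of each Serpina1 copy and of their sum in the 4 groups, with 1 point per library and bars for the mean and SD (n = 4). Serpina1e lies between 311 and 1567 CPM in the 8 low isoleucine libraries and between 1955 and 9766 CPM in the 8 control libraries, while the other 4 copies overlap between diets in each feeding state.

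The sum of the 5 copies was 28032, 27597, 29131 and 27086 CPM in control fasted and 21564, 23098, 18071 and 20319.7 CPM in low isoleucine fasted libraries. These groups did not overlap. In refed mice the control libraries had 26348, 24678, 31845 and 25784 CPM and the low isoleucine libraries 23580.3, 25176, 25392 and 21625 CPM, which overlapped. The log2 fold change was -0.43 (SE 0.118, adjusted p = 0.117) in fasted, -0.18 (SE 0.118, adjusted p = 0.662) in refed and -0.31 (SE 0.0836, adjusted p = 0.0770) in all mice. None of the 3 passed in edgeR, but the averaged value did so without control refed library 4 (-0.33, adjusted p = 0.0441), and the DESeq2 Wald test called the fasted (adjusted p = 0.00395) and the averaged difference (adjusted p = 0.00218). The sum of Serpina1a to Serpina1d without Serpina1e, chosen after the data were seen, was 22763 ± 1336 CPM in control fasted and 20183 ± 1813 CPM in low isoleucine fasted livers. Its log2 fold changes were -0.17 (SE 0.110, adjusted p = 0.637) in fasted and 0.06 (SE 0.110, adjusted p = 0.912) in refed mice.

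The division of Serpina1 counts among the copies, which needs no scaling between libraries, changed with diet. Serpina1e took 16.6%, 14.7%, 20.6% and 23.5% of the Serpina1 counts in control fasted libraries and 4.29%, 4.29%, 1.72% and 1.65% in low isoleucine fasted libraries. In refed libraries it took 13.7%, 7.92%, 30.7% and 21.7% on the control diet and 2.27%, 5.04%, 6.17% and 5.66% on the low isoleucine diet. Every low isoleucine library lay below every control library. The mean difference was -15.9 percentage points in fasted mice (exact two-sided permutation p = 0.0286, adjusted p over the 5 copies 0.0357) and -13.7 in refed mice (exact p = 0.0286, adjusted 0.0476). Both raw p-values are the smallest that 4 against 4 libraries can give. Averaged over feeding states, with labels permuted within each, it was -14.8 percentage points (exact p = 0.000408, adjusted 0.000680). This raw p is likewise the smallest that the averaged test can give. Since shares sum to a whole, the other copies' shares rise where that of Serpina1e drops: Serpina1b went from 23.0% ± 1.33 to 30.3% ± 1.63 in fasted livers, with its CPM hardly different. The fasted share difference missed the threshold without control fasted library 4 (-14.3, adjusted p = 0.0714). The refed one did so without control refed library 3 or any low isoleucine refed library (-14.2 to -9.63, adjusted p between 0.0714 and 0.0952).

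**Figure D2:**
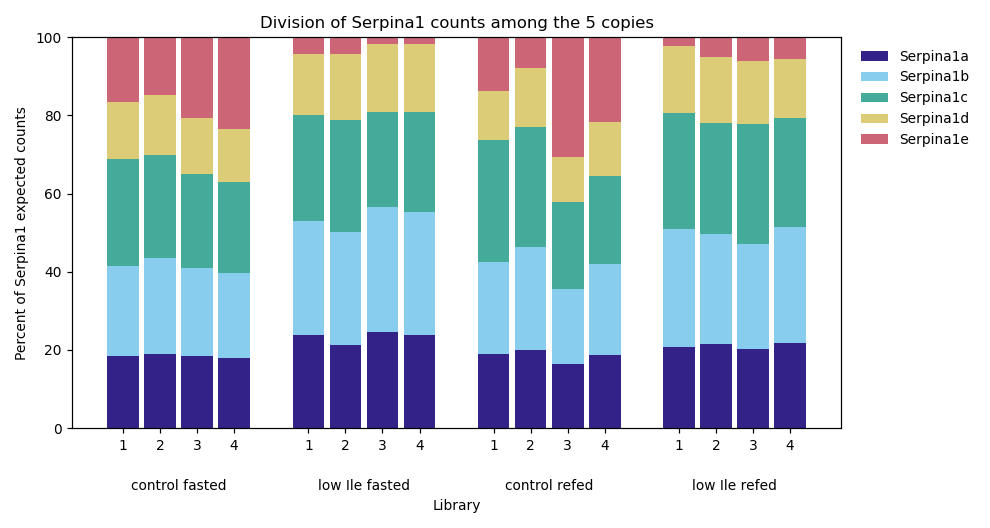
Percent of the Serpina1 expected counts (vertical axis, 0 to 100) assigned to each of the 5 copies in each library, grouped by diet and feeding state. The top segment, Serpina1e, is between 1.65% and 6.17% in the low isoleucine libraries and between 7.92% and 30.7% in the control libraries.

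Serpina3k, a contrapsin-like inhibitor that also binds tissue kallikrein, was the most abundant of the antichymotrypsin-like members. It had 13059, 14097, 17389.8 and 14718 CPM in control fasted and 9223, 12262, 7596 and 10526 CPM in low isoleucine fasted libraries. The fasted groups did not overlap. In refed libraries it had 12605, 11385, 19983 and 9909 CPM on the control diet and 11829, 9619.6, 12519.8 and 10100.4 CPM on the low isoleucine diet, and these overlapped. The log2 fold changes were -0.58 (SE 0.199, adjusted p = 0.240) in fasted, -0.29 (SE 0.199, adjusted p = 0.680) in refed and -0.44 (SE 0.141, adjusted p = 0.140) in all mice. Without control refed library 4 the averaged difference was -0.51 and passed (adjusted p = 0.0491).

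Serpina7, the thyroxine-binding globulin gene, passed between diets in fasted mice. It had 15, 12.7, 23.3 and 8.56 CPM in control fasted and 66.2, 29.3, 36 and 45.5 CPM in low isoleucine fasted libraries. The groups did not overlap, with every low isoleucine value higher. In refed libraries it had 81, 42.4, 42.8 and 74.3 CPM on the control and 85.8, 59.4, 62 and 40.9 CPM on the low isoleucine diet, and these overlapped. The fasted difference was a 2.97-fold rise (log2 fold change 1.57, SE 0.336, adjusted p = 0.0438), and the refed one was 0.05 (95% interval -0.64 to 0.73, adjusted p = 0.984). The difference between the 2 diet effects was -1.53 (SE 0.464, unadjusted p = 0.00490) and did not pass over all genes (adjusted p = 0.546), so it is not shown that the diet effects differed. The deposited table of the authors gave 1.56 for fasted mice (adjusted p = 0.0144). The fasted call was close to the threshold. It was lost without any of 10 libraries: control fasted 1, 2 or 4, each low isoleucine fasted library, or low isoleucine refed 1, 2 or 3 (log2 fold change 1.31 to 1.73, adjusted p between 0.0514 and 0.145). It was also lost under upper-quartile scaling (adjusted p = 0.0555), with no filter on low counts (0.128) and with only the fasted groups in the fit (0.0576).

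Serpina3m, Serpina3n and Serpina6 were not called between diets. Serpina3m had log2 fold changes of -0.15 in fasted and 0.54 in refed mice (SE 0.214 and 0.215, adjusted p = 0.888 and 0.425). Serpina3n had -0.32 and 0.18 (SE 0.150 and 0.150, adjusted p = 0.459 and 0.749). Serpina6 had 0.23 and -0.28 (SE 0.260 and 0.260, adjusted p = 0.852 and 0.781).

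In all, 2 of the 10 members passed between diets in fasted mice (Serpina7 higher, Serpina1e lower), beside 0.771% of all tested genes. In refed mice 0 members passed, beside 0.174% of genes. There 2 members and 1456 of the 14920 tested genes had an unadjusted p below 0.05. The DESeq2 Wald test called 1 member (Serpina1e) and 172 genes in refed mice. Averaged over feeding states 1 passed, beside 1.51% of genes. Groups that did not overlap were found for 3 members in fasted mice (8.07% of genes) and for 1 in refed mice (4.44% of genes). As the members were chosen with earlier results of these data known, these counts are not read as an excess. The median log2 fold change of the members was -0.19 in fasted mice, against 0.01 over all genes, and 0.03 in refed mice, against -0.01. For the difference between the 2 diet effects 0 members passed, beside 0% of genes in edgeR, where 3 members and 928 genes had an unadjusted p below 0.05. On that contrast limma-voom also called 0 genes, and DESeq2 called 36 genes and 0 members.

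**Figure D3:**
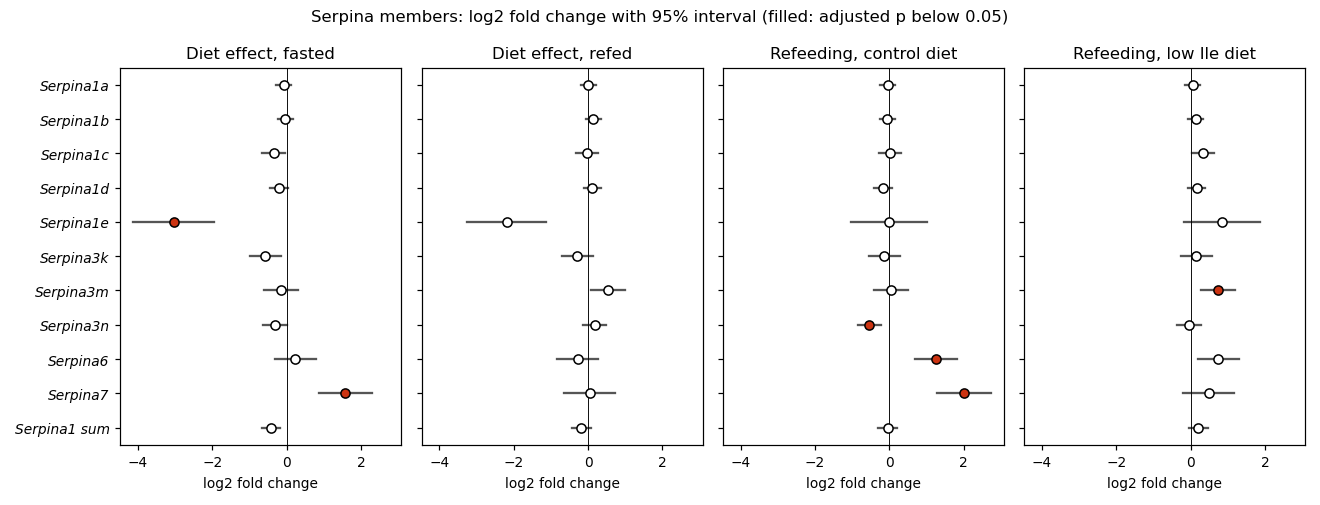
Log2 fold change (horizontal axis) of each member and of the Serpina1 sum, with 95% intervals, for the diet effect in fasted and in refed mice and for refeeding on each diet. Filled points have an adjusted p below 0.05. Serpina1e and Serpina7 are filled for diet in fasted mice, Serpina3n, Serpina6 and Serpina7 for refeeding on the control diet and Serpina3m for refeeding on the low isoleucine diet.

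The second question was how refeeding altered these genes. Both hormone carriers rose. Serpina7 rose 4.04-fold on the control diet, from 14.9 ± 6.22 to 60.1 ± 20.4 CPM, with no overlap between the 4 fasted and 4 refed libraries listed above (log2 fold change 2.01, SE 0.340, adjusted p = 0.000943). On the low isoleucine diet it went from 44.3 ± 16.1 to 62 ± 18.4 CPM and the groups overlapped (0.49, SE 0.325, adjusted p = 0.323). Averaged over diets it rose (1.25, SE 0.234, adjusted p = 0.000750). The 2 refeeding effects of Serpina7 are set by the same 4 groups as its diet effects, so their difference is the -1.53 given above.

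Serpina6 had 177, 125, 97.3 and 80.9 CPM in control fasted and 334, 395, 231 and 181 CPM in control refed libraries. On the low isoleucine diet it had 183, 122, 105 and 153 CPM in fasted and 207, 283, 203 and 249 CPM in refed libraries. On each diet every refed library was above every fasted one. It rose on the control diet (log2 fold change 1.25, SE 0.264, adjusted p = 0.00412) and averaged over diets (1.00, SE 0.185, adjusted p = 0.000621), which is 1.99-fold. On the low isoleucine diet the difference was 0.74 (SE 0.261, adjusted p = 0.0529). That value missed the threshold narrowly and passed under 8 of 9 other settings and without any of 5 libraries (control fasted 1 or 4, low isoleucine fasted 1, control refed 2 or 4), with adjusted p between 0.0351 and 0.0456 in the latter.

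Serpina3n, an acute phase gene whose product inhibits cathepsin G and granzyme B, had 565, 659, 571 and 504 CPM in control fasted and 357, 522, 343 and 363 CPM in control refed libraries. On the low isoleucine diet it had 488, 421, 424 and 511 CPM in fasted and 431, 507, 499.5 and 354 CPM in refed libraries. The groups overlapped on both diets, on the control diet through library 2 of the refed group only. Serpina3n fell on the control diet (log2 fold change -0.54, SE 0.150, adjusted p = 0.0214) and averaged over diets (-0.29, SE 0.106, adjusted p = 0.0459), and not on the low isoleucine diet (-0.04, SE 0.150, adjusted p = 0.883). The difference between these effects was 0.49 (SE 0.212, adjusted p = 0.780). The control diet call was lost without control fasted 2, control refed 1 or control refed 3 (-0.49 to -0.46, adjusted p between 0.0584 and 0.0707), with library size alone (-0.42, adjusted p = 0.0610) and with only the control groups in the fit (-0.54, adjusted p = 0.0547). The averaged call was lost without any of 10 libraries (control fasted 1, 2 or 3, low isoleucine fasted 1 or 4, control refed 1, 3 or 4, low isoleucine refed 1 or 4), with adjusted p between 0.0613 and 0.0964. It was also lost under upper-quartile scaling (-0.27, adjusted p = 0.0708), with library size alone (-0.18, adjusted p = 0.214) and with no filter on low counts (-0.29, adjusted p = 0.0535).

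Serpina3m had 401, 557, 341 and 251 CPM in control fasted, 425, 509, 377 and 286 CPM in control refed, 344, 389, 314 and 347 CPM in low isoleucine fasted and 661, 580.0, 655 and 425 CPM in low isoleucine refed libraries. The control groups overlapped, and every low isoleucine refed library was above every low isoleucine fasted one. Serpina3m rose in low isoleucine mice (log2 fold change 0.73, SE 0.215, adjusted p = 0.0220) and not on the control diet (0.04, SE 0.214, adjusted p = 0.933). The difference between those effects was 0.69 (SE 0.303, adjusted p = 0.791). The call was lost without low isoleucine fasted 3 or 4 or low isoleucine refed 1 or 3 (0.67 to 0.73, adjusted p between 0.0504 and 0.0642). Averaged over diets it was 0.39 (adjusted p = 0.0590), and 0.44 (adjusted p = 0.0271) without control refed library 4.

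Serpina1a to Serpina1e, their sum and Serpina3k did not pass on refeeding on either diet. On the control diet the log2 fold changes were -0.04, -0.05, 0.02, -0.18 and -0.01 for the 5 copies in order, -0.04 for the sum and -0.14 for Serpina3k. On the low isoleucine diet they were 0.05, 0.13, 0.34, 0.16 and 0.84 for the copies, 0.21 for the sum and 0.15 for Serpina3k, with adjusted p of 0.239 for Serpina1e and 0.104 for Serpina1c.

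Of the 10 members, 3 passed on refeeding on the control diet (Serpina6 and Serpina7 higher, Serpina3n lower), beside 17.1% of all genes, and 1 (Serpina3m, higher) on the low isoleucine diet, beside 21.4%. Averaged over diets 3 passed, beside 32.9% of genes. Groups did not overlap for 2 members on the control diet (19.1% of genes) and for 2 on the low isoleucine diet (24.6% of genes). With 10 members, these counts are near the background and nothing particular to the members is read from them. The median log2 fold change of the members was -0.03 on the control and 0.25 on the low isoleucine diet, against 0.01 and 0.02 over all genes. With library size alone as the scaling, the all-gene medians became 0.14 and 0.13, and the signs of Serpina1a, Serpina1b, Serpina1e and the sum on the control diet turned positive without passing.

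**Figure D4:**
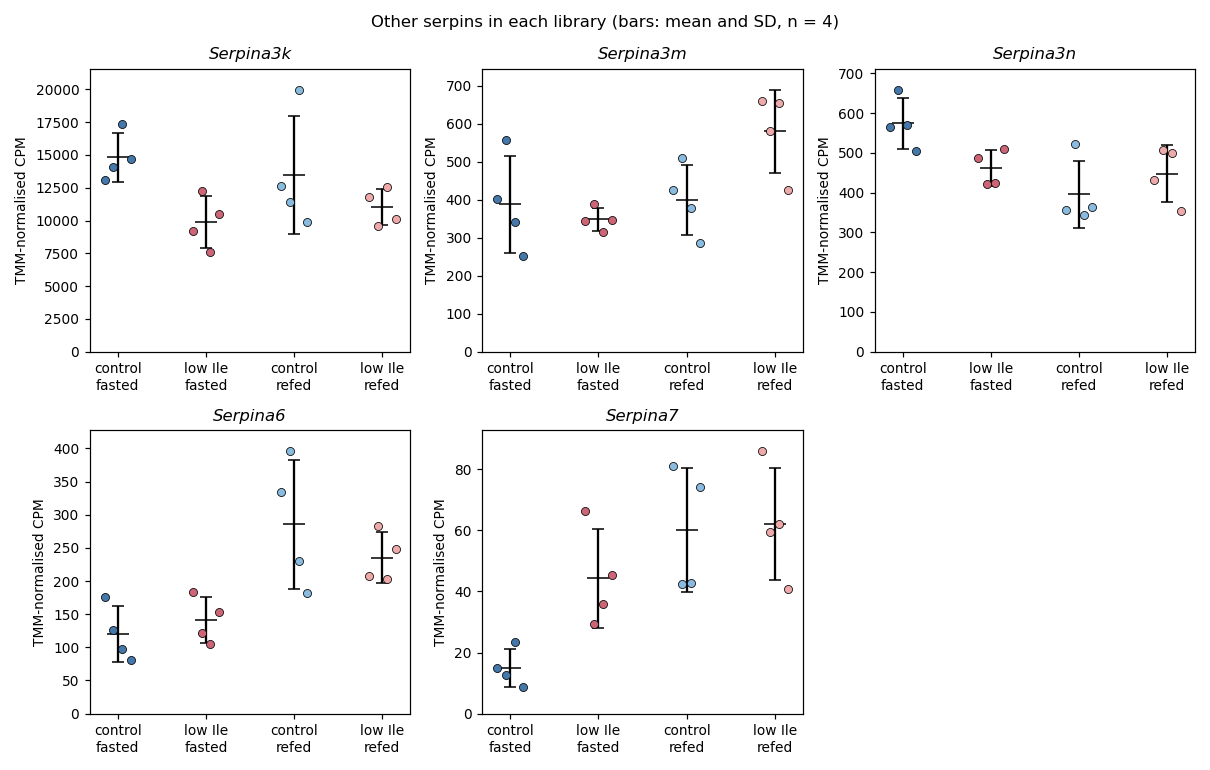
TMM-normalised CPM (vertical axis, starting at 0) of Serpina3k, Serpina3m, Serpina3n, Serpina6 and Serpina7 in the 4 groups, with 1 point per library and bars for the mean and SD (n = 4). Serpina7 is between 8.56 and 23.3 CPM in control fasted libraries and at or above 29.3 CPM in all others, and the Serpina6 refed libraries lie above the fasted ones of the same diet.

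Other Serpina genes were examined in the same contrasts. Of 15 listed, 7 had enough counts to be tested. For diet in fasted mice the log2 fold change was negative in 7 and positive in 0 (median -0.34, against 0.01 over all genes). In refed mice it was negative in 6 and positive in 1 (median -0.23, against -0.01). None of the 7 passed in either feeding state alone. Averaged over feeding states 1 of the 7 fell and 0 rose, beside 1.51% of all genes called. Serpina12, which encodes the adipokine vaspin, had 40.6 ± 18.1 CPM in control fasted, 7.14 ± 1.85 in low isoleucine fasted, 28.4 ± 24.2 in control refed and 7.56 ± 2.58 CPM in refed livers of the low isoleucine diet. Averaged over feeding states it fell with isoleucine restriction (log2 fold change -2.20, SE 0.489, adjusted p = 0.0388) but did not pass in fasted (-2.51, adjusted p = 0.138) or refed mice (-1.90, adjusted p = 0.390) alone. On refeeding 2 of the 7 rose on the control diet, beside 17.1% of all genes called, and 1 on the low isoleucine diet, beside 21.4%. Averaged over diets 2 rose and 1 fell, beside 32.9% of all genes. With 7 genes, nothing particular to them is read from these counts. Serpina10, the protein Z-dependent protease inhibitor, rose on refeeding on the control diet (0.59, SE 0.137, adjusted p = 0.00687) and on the low isoleucine diet (0.53, SE 0.137, adjusted p = 0.0107). Serpina3g fell on refeeding averaged over diets (-0.83, SE 0.217, adjusted p = 0.00727). Serpina9, scarce at a mean of 0.541 CPM, rose on refeeding on the control diet (3.96, SE 0.930, adjusted p = 0.00830). It had 236 counts over all libraries, 94 of them in 1 library, and how far this call depends on single libraries was not tested. Serpina11 (39.9 CPM) and Serpina3f (2.81 CPM) passed in none of the 7 contrasts.

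Members of the serpin family elsewhere in the genome, and proteases that serpins act on, were examined too. Averaged over feeding states, 1 of 9 other secreted liver serpins fell on the low isoleucine diet and 0 rose, beside 1.51% of all genes called. It was Serping1, the C1 inhibitor (log2 fold change -0.31, adjusted p = 0.0487). The median of the 9 was -0.11, against 0.00 over all genes. Of 6 tested intracellular serpins 0 passed (median -0.17), and of 9 tested target proteases 0 passed (median -0.23). The listed proteases Elane, Prtn3 and Ctsg had too few counts to be tested (18, 21 and 0 over all libraries). On refeeding averaged over diets, Serpind1 (heparin cofactor II) rose by 0.30 (adjusted p = 0.0178) as the 1 of 9 secreted serpins that passed. Serpinh1, a collagen chaperone, rose by 0.76 (adjusted p = 0.00142), and Serpinb6b had -1.18 (adjusted p = 0.000238), as 2 of 6 intracellular serpins. Of the target proteases, 1 rose (F11, coagulation factor XI) and 1 fell (Klkb1, plasma kallikrein). The medians were -0.04, -0.24 and 0.02, against 0.02 over all genes, of which 32.9% were called.

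Of 18 genes whose products fold and export secreted glycoproteins such as alpha-1-antitrypsin, 9 rose and 0 fell on refeeding on the control diet (median 0.37, beside 17.1% of all genes called). On the low isoleucine diet 3 rose and 3 fell (median 0.21, beside 21.4% of genes). Averaged over diets 10 rose and 2 fell, with a median of 0.30 against 0.02, beside 32.9% of genes. Hspa5, the chaperone BiP, had 1.46 (adjusted p = 0.000399), Calr, calreticulin, 0.70 (adjusted p = 0.00206) and Lman1, a cargo receptor for secreted glycoproteins, 0.43 (adjusted p = 0.00120). With diet 0 of the 18 passed, averaged over feeding states (median -0.01). Of 13 tested liver transcription factors of serpin promoters, 0 passed with diet and 3 rose and 5 fell on averaged refeeding, where 32.9% of all genes were called, with medians of 0.09 and -0.13. The bile acid receptor Nr1h4 had 0.60 (adjusted p = 8.88e-05) on refeeding, and Cebpb had -1.18 (adjusted p = 0.000485).

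Sex-patterned liver genes also differed between the diets. Averaged over feeding states, where 1.51% of all genes were called, 8 of 21 male-biased genes fell on the low isoleucine diet and 0 rose, with a median of -1.19, and 4 of 11 tested female-biased genes rose and 0 fell, with a median of 1.09. Since the lists were chosen with earlier results of these data known, these counts are not read as an excess over that share. All 21 male-biased genes had counts in every group. Their summed level was 43262 to 70693 CPM in control fasted, 13072 to 37344 in low isoleucine fasted, 11003 to 82685 in control refed and 12482 to 27906 in low isoleucine refed libraries. The diets thus differed without overlap in fasted mice but overlapped in refed mice, where those of Serpina1e did not. The part of this difference in the Serpina1e result was not tested. Mup20, a male urinary pheromone protein, fell by 2.57 on the log2 scale (adjusted p = 0.000244). It had 7534 to 14513 CPM in control fasted and 1255 to 3108 CPM in low isoleucine fasted libraries, and its log2 CPM correlated with that of Serpina1e across the 16 libraries (Pearson r = 0.85, a description of points that share diet group and library). For Alb, the other reference gene compared in this way, r was -0.67. Of 13 growth hormone and sex-pattern regulators 0 passed with diet (median -0.08). On refeeding averaged over diets 1 rose (Esr1) and 3 fell (median -0.05), beside 32.9% of all genes called. Among the 3 was Socs2, a suppressor of cytokine signalling (-1.61, adjusted p = 0.00177).

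Acute phase genes, of which Serpina3n is one in mice, split on refeeding. Averaged over diets 5 of 28 rose and 9 fell, beside 32.9% of all genes called, with a median of -0.01. Hamp, the iron hormone hepcidin, had 2.01 (adjusted p = 0.000644), and Mt2, a metallothionein, -3.06 (adjusted p = 0.000283). With diet 1 of 28 passed, Apcs, serum amyloid P (0.71, adjusted p = 0.0101), beside 1.51% of all genes, and the median was 0.14. Of 11 tested genes of IL-6 signalling 6 fell on averaged refeeding, among them the receptor gene Il6ra (-1.04, adjusted p = 5.26e-07), and 0 rose (median -0.36), beside the same 32.9%. Il6ra was also the 1 of 11 that fell with diet (-0.50, adjusted p = 0.0114, list median -0.19), beside the same 1.51%.

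Hormones carried by Serpina6 and Serpina7 have target genes in the liver. Of 15 glucocorticoid response genes 7 fell and 0 rose on refeeding averaged over diets, beside 32.9% of all genes called, with a median of -0.45, and 0 passed with diet (median -0.04). Tdo2, tryptophan dioxygenase, had -0.88 (adjusted p = 4.62e-06) and Pck1, a gluconeogenic enzyme, -1.92 (adjusted p = 3.26e-05). Of 13 thyroid hormone response genes 2 rose and 6 fell on averaged refeeding (median -0.27, beside the same 32.9%), and 0 passed with diet (median 0.00). Klf9, which is on both lists, had -1.90 (adjusted p = 4.26e-07). Of 6 tested other steroid and thyroid hormone carriers 0 passed with diet (median 0.25) or refeeding (median 0.03). The most abundant of them, Alb (65673 CPM), had log2 fold changes of 0.37 (adjusted p = 0.130) with diet and -0.04 (adjusted p = 0.810) with refeeding. Of 23 tested secreted plasma proteins 0 passed with diet (median 0.07), and 0 rose and 2 fell on refeeding (median -0.05, beside the same 32.9%).

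Markers of other liver cell types were examined in the same contrasts. Averaged over feeding states, 1.51% of all genes were called with diet. Of 13 Kupffer cell and macrophage markers 1 fell and 0 rose (median -0.50). Of 11 tested lymphocyte markers 1 fell and 0 rose (median -0.46). Of the endothelial (10), stellate (10), neutrophil (3 tested), cholangiocyte (6 tested) and hepatocyte (14) markers 0 passed, with medians of -0.11, -0.09, -0.35, -0.24 and 0.15. The summed Kupffer and macrophage level, with all 13 markers present in every group, was 374 to 485 CPM in control fasted, 232 to 337 in low isoleucine fasted, 282 to 543 in control refed and 223 to 397 CPM in low isoleucine refed libraries. Its part in the member results was not tested. The lymphocyte sum, with all 12 markers present, was 13.7 to 16.2, 6.69 to 13.9, 10.8 to 29.9 and 8.41 to 13.8 CPM in the same order. On refeeding averaged over diets 32.9% of all genes were called. There 0 Kupffer, lymphocyte, neutrophil or cholangiocyte markers passed (medians -0.07, 0.05, -0.19 and 0.00). Of the rest, 1 endothelial marker fell (median -0.34), 1 stellate marker rose and 1 fell (median 0.08) and 1 hepatocyte marker rose and 3 fell (median -0.16).

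Genes with the most similar levels to a member were listed among 6776 candidates with a mean of at least 10 CPM, by Pearson correlation of log2 CPM over the 16 libraries, which share diet and feeding groups. For Serpina1e they were Alas2 (r = 0.93), C9 (0.93), C8a (0.90), C6 (0.88) and Maco1 (0.86). C6, C8a and C9 encode components of the terminal complement complex, and Alas2 encodes the erythroid form of the first enzyme of haem synthesis. After the group means were subtracted the 5 highest were Psmd6, Plaa, Blzf1, Zfp330 and Scyl3 (0.88 to 0.82), none of them among the first 5. For the Serpina1 sum they were Ugt1a6b (0.87), Alas2 (0.86), C8a (0.86), C9 (0.86) and Nampt (0.85). None of these was among the 5 highest for the sum after group means were subtracted, where Ccdc25 (0.91) was first.

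C1ra, a complement protease gene, was the most similar to Serpina3k both over the libraries (r = 0.92) and after group means were subtracted (0.88). Gpld1, which encodes a phospholipase, was the most similar to Serpina3n (0.93) and was second after group means were subtracted (0.87), behind Steap4 (0.88). Snx3 (0.89) was the most similar to Serpina6 and Commd2 (0.86) to Serpina7. Serpina6 and Serpina7 had r = 0.65 with each other over the libraries and 0.13 within groups. Within groups, Serpina1b and Serpina1d had r = 0.83 and Serpina1b and Serpina3m had 0.83, while Serpina1e had values between -0.15 and 0.47 with the other 4 copies.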

How the data were processed

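RNA of 16 livers was sequenced from stranded, poly-A enriched libraries whose lanes were merged before expression estimation, per the labels' protocols. The gene table that the authors deposited contains expected counts (RSEM, from its name), of which 10.2% were not whole numbers. Aligner, RSEM settings and genome build were not given in the sources used here. Upstream tools were edgeR, limma and R 3.5.3 according to the submitters' processing notes. Comparison tables deposited by the authors give, per the file headers, a log2 fold change, an average log2 CPM, a score (F) and p-values for each gene.

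After rounding, these expected counts entered edgeR 4.0.16 under R 4.3.3 (filterByExpr with minimum count 10 and minimum total 15, TMM, robust quasi-likelihood F test, 1 mean per group, all 16 libraries), and 51633 of 51912 identifiers had a symbol. P-values were adjusted by Benjamini-Hochberg over all 14920 genes, threshold 0.05. The Serpina1 sum replaced its 5 copies in a separate fit of 14916 features. Shares of Serpina1 counts were tested by exact permutation. Python 3.11.15, numpy 2.4.6, pandas 2.3.3 and matplotlib 3.10.9 were used for shares, sequences and figures. The fit was also run on simulated counts with equal diet effects in both feeding states and no refeeding effect. That run did not include the division of shared reads among copies, and no result here rests on it.

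The members and the gene lists were chosen with earlier results of these data known. Their counts beside the all-gene shares are therefore not read as an excess. The rule named all members in every contrast. Of each list it named up to 4 passing genes per contrast with the smallest p, or where none passed up to 2 with the largest mean, and it added other Serpina genes with a mean of at least 1 CPM and the 5 genes most like a member. The lists were other Serpina genes, other secreted and intracellular serpins, target proteases, glycoprotein folding and export, liver transcription factors, growth hormone and sex-pattern regulators, male-biased and female-biased genes, acute phase, IL-6 signalling, glucocorticoid response, hormone carriers, thyroid hormone response, plasma proteins and markers of 7 cell types. The values of 1 listed gene are not reported here.

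Marks in the labels (RL, R, L, N) recur in each group. Over 24 pairs of libraries with the same mark, deviations from group means correlated between -0.43 and 0.40, so the marks were not taken to pair libraries. No libraries agreed within sampling noise. Alternatives were other scalings (DESeq2 size factors, upper quartile, library size alone), other filters, the DESeq2 1.42.0 Wald test, limma-voom (limma 3.58.1), only the compared groups, the mark as a replicate block and leaving out each library.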

Additional observations from a re-analysis of the deposited data

Results flagged for a closer look

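Serpina3n had 522 CPM in control refed library 2, against 343 to 363 CPM in the other 3 control refed libraries. It was the 1 value far from its group among 44 groups of 4 examined (each member and the Serpina1 sum in each group), and about 1 in 20 such groups is expected by chance to hold one. Without this library the log2 fold change of Serpina3n on refeeding on the control diet was -0.70 (edgeR, adjusted p = 0.00368), against -0.54 with it.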

How the results depend on the processing

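Of 1720 single values recomputed under another setting, 1599 kept their direction and their side of the threshold. Another 57 changed direction, 25 passed only under the other setting and 39 passed only in the main fit. Most of the 1720 belong to results not called in the main fit, so the 1599 do not measure how firm the calls are. The number of members past the threshold for diet in fasted mice was 1 under upper-quartile scaling, with no filter on low counts and with the compared groups alone (against 2). By the DESeq2 Wald test it was 1 for diet in refed mice and 2 averaged over feeding states. On refeeding with the low isoleucine diet it was 2 (against 1) with DESeq2 size factors, upper-quartile scaling, a filter of 1 CPM, the DESeq2 Wald test, limma-voom and the compared groups alone, and 3 with library size alone. With the mark in the labels as a replicate block it was also 2, through Serpina6 (0.76, adjusted p = 0.0233), and the block turned the uncalled averages of Serpina6 with diet to 0.020 and of Serpina3k with refeeding to -0.013. The Serpina1 sum passed by the DESeq2 Wald test for diet in fasted mice (-0.43) and averaged (-0.31). With library size alone it passed on refeeding with low isoleucine (0.32) and averaged over diets (0.20), and on the control diet it was 0.071. Without Serpina1e, the summed copies had 0.055 for diet in refed mice. For these changes the cause was not tested.

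Other signs that turned were of uncalled values near 0. In limma-voom Serpina6 had 0.014 for averaged diet and Serpina3k -0.0055 for averaged refeeding. On refeeding with the control diet and library size alone, Serpina1a had 0.072, Serpina1b 0.066 and Serpina1e 0.095, and Serpina1e had 0.0050 with DESeq2 size factors and 0.0050 by the DESeq2 Wald test. Serpina3n had 0.069 on the low isoleucine diet with library size alone, and Serpina1d, averaged over diets, 0.013 with upper-quartile scaling and 0.11 with library size alone.

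Leaving out each library in turn, the members past the threshold numbered 0 to 2 for diet in fasted mice, 1 to 2 averaged, 2 to 3 for refeeding on the control diet, 0 to 2 on the low isoleucine diet and 2 to 3 averaged. Under the other settings the count of 3 was 2 to 3 for refeeding on the control diet and 2 to 4 averaged. The Serpina1 sum was -0.34 to -0.26 for averaged diet and -0.13 to 0.0014 for refeeding on the control diet. The Serpina1e share differed by -17.2 to -14.3 percentage points in fasted and -17.2 to -9.63 in refed mice. The signs of these uncalled values also turned, with ranges for diet in fasted mice of Serpina3m (-0.31 to 0.073), for diet in refed mice of Serpina1a (-0.022 to 0.042), Serpina1c (-0.13 to 0.041) and Serpina7 (-0.15 to 0.22) and for averaged diet of Serpina6 (-0.12 to 0.098). The same held, with ranges for refeeding on the control diet of Serpina1c (-0.051 to 0.10), Serpina1e (-0.50 to 0.27) and Serpina3m (-0.12 to 0.27), for refeeding on the low isoleucine diet of Serpina3n (-0.11 to 0.056) and for averaged refeeding of Serpina1a (-0.016 to 0.020), Serpina1d (-0.035 to 0.030) and Serpina3k (-0.12 to 0.068). Expected counts of Serpina7 were the lowest of the members, 267 to 2994 per library, so its values are the most limited by depth.

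Over all genes, the DESeq2 Wald test called 365 for diet in fasted mice, 172 in refed mice and 607 averaged, against 115, 26 and 226 in edgeR. With the compared groups alone edgeR called 193 in fasted and 3 in refed mice. Without 1 library the counts ranged from 6 to 222, from 3 to 89 and from 115 to 473, so the background shares for diet move with the library left out. With library size alone, genes higher and lower on refeeding numbered 1896 and 747 on the control diet (against 1329 and 1223), 2094 and 1153 on the low isoleucine diet (against 1433 and 1761) and 3649 and 1637 averaged (against 2451 and 2464).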
